A study of Mus musculus with 15 samples.

Results

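Inhib_7 was 1 of 12 clusters of inhibitory neurons in single-cell RNA sequencing of the mouse prefrontal cortex (PFC), and it was found by taking every cell that the authors' table of cells assigned to it. It held 468 of the 35360 retained cells and 468 of the 2153 inhibitory neurons, with 392 cells at P60 and 76 at P21. The description that came with the cluster gives Tnnt1 and Pvalb as its markers. The study itself reports Tnnt1 for it and places it outside the main Pvalb, Sst and Vip groups. Tnnt1 was at its highest level among the 12 clusters here, but Pvalb was detected in 42 of 392 cells at P60 and in 0 of 76 at P21, so the cluster is called by its number below and described by its leading genes Npy, Lamp5 and Tnnt1.

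The cells came from male C57BL/6N mice. Adult mice (8 to 10 weeks, P60 here) had learned to infuse cocaine or saline intravenously by their own action, and tissue was taken during the maintenance phase, after 48 h of withdrawal or after 15 days of withdrawal, with 2 libraries for each of these 6 groups. The 3 libraries of P21 mice (3 weeks) had no treatment. No transgene or mutation is named for any group, a library pooled tissue from several mice, and pooled mice cannot be told apart, so a library is the replicate. The study's methods describe the P60 libraries as independent biological replicates, whereas 4 mice were used at P21 and libraries are described as pools of a pair of mice, so the 3 P21 libraries may share mice, and p-values at P21 may measure a spread that is partly technical. The tissue entry of the labels names the nucleus accumbens while the source entry names the PFC.

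Cortical inhibitory neurons release GABA and arise mainly in the ganglionic eminences of the embryonic brain. Those from the medial eminence include the fast-spiking parvalbumin cells and the somatostatin cells. Those from the caudal eminence include the Vip cells and the Lamp5 cells, many of which are neurogliaform cells that release GABA diffusely and carry neuropeptide Y and reelin. The PFC is known to mature through adolescence and to take part in drug seeking.

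A unique molecular identifier (UMI) counts 1 captured RNA molecule, and levels are given as CPM, the UMIs of a gene per 1000000 UMIs of the summed cells. The retained cells of a library held 8375172 to 42892922 UMIs, while Inhib_7 held 3431766 UMIs at P60 and 482866 at P21 in all. A P60 cell of Inhib_7 had a median of 9269 UMIs and a P21 cell 7104.5, and the 3 P21 libraries differed in this median, with 8798, 4813.5 and 4676.5 UMIs. Between 3 and 81 cells of Inhib_7 were present in a library. The 3 libraries with fewer than 10 cells, all of the maintenance phase, were summed with the other library of their group, which leaves cocaine and saline with 1 unit each in that phase (a unit is a library or such a sum). Ranges given over libraries keep these 3 apart, so their ends can rest on 3 or 7 cells. Over 105 pairs of libraries, 0 to 27 cell barcodes were shared, at most 1.09% of the smaller library, and none of these were Inhib_7 cells in both. The 3 P21 libraries and the 2 cocaine libraries at 15 days stood apart from the rest in a small set of genes, in excitatory neurons as well as in Inhib_7. Values in excitatory neurons are given beside some of the named genes and not beside all of them.

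Some genes known from Lamp5 cells were at their highest level among the inhibitory clusters in Inhib_7, while others were not, as given further on. The cells of the cluster were also not uniform, since a minority carried genes of another family. Gad1 and Gad2, the enzymes that make GABA, were found in all 468 cells. Npy, which encodes neuropeptide Y, was at 30852 CPM in Inhib_7 with P60 and P21 cells pooled, against 21651 CPM in the next highest cluster, Inhib_1. Lamp5, a membrane protein that names this family of cells, was at 907 CPM against 720 in Inhib_8. Because clusters were made from these same cells, these levels are a description and no test was run between clusters.

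Tnnt1, the slow skeletal form of troponin T, was at 270 CPM in Inhib_7, 143 in Inhib_8 and 12.7 in the pool of all other inhibitory clusters. Across the 12 P60 libraries Tnnt1 ranged from 130 to 566 CPM with a median of 282, and the 3 P21 libraries lay at 294, 188 and 137. Npy ranged from 20452 to 60084 CPM over the P60 libraries (median 32736) and from 38315 to 42338 at P21, and Lamp5 from 746 to 1076 CPM (median 880.2) and from 1003 to 1420. Both ends for Tnnt1 and the highest Lamp5 level at P60 came from maintenance libraries of 7 cells, and the highest Npy level from a library of 3 cells. With these small libraries included, the P60 and P21 libraries overlapped in each of these genes. In NCBIM37 (mm9), the build of the files, Tnnt1 lies at chr7:4456172-4467984, Npy at chr6:49772709-49779506, Lamp5 at chr2:135877975-135895653 and Pvalb at chr15:78021544-78036830, and UMIs were counted per gene.

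The 15 genes with the highest ratio of their level in Inhib_7 to that in the highest other cluster, among genes with at least 100 UMIs, were led by Lsp1, an actin-binding protein first known from lymphocytes, at 44.4 CPM against 19.1 in Inhib_8. Resp18, a protein of the secretory granules of neuroendocrine cells, was at 3274 CPM against 1697 in Inhib_9. Cplx3, a complexin that binds the vesicle fusion machinery, was at 579 CPM against 347 in Inhib_5. Mia1, a small secreted protein, was at 210 CPM against 127 in Inhib_8, and the calcium sensor Ncald was at 1596 against 1090. The other 10 genes, Tnnt1, Rpusd1, Nt5dc3 and Elovl4 among them, had ratios between 1.43 and 1.88, and for 10 of all 15 the runner-up was Inhib_8. Of 5347 genes with at least 100 UMIs, 386 were at their highest level in Inhib_7.

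Further genes known from Lamp5 and neurogliaform cells had their highest or second highest level in Inhib_7. Kit, a receptor tyrosine kinase, was at 374 CPM against 280 in the next cluster, and Pnoc, the precursor of the peptide nociceptin, was at 1084 against 930. Id2, an inhibitor of DNA-binding factors, was second at 1264 CPM to 1592 in Inhib_8, and Hapln1, a link protein of the perineuronal matrix, was second at 315 to 548 in the same cluster. Reln, which encodes reelin, was at 150 CPM and ranked in place 4, well under the 585 CPM of Inhib_5, and Cxcl14 was at 21.2 CPM against 708 in Inhib_10. The list of Lamp5 genes was therefore not raised as a whole.

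Vip and several other markers of the other families were low. Vip was at 12.5 CPM in Inhib_7 against 3329 in the other clusters pooled. Cck was at 619 CPM against 2250, with a UMI in 241 of 392 P60 cells and 53 of 76 P21 cells. Slc17a8, Krt73 and 5330429C05Rik had no UMI in Inhib_7, which with 3914632 UMIs in the cluster allows up to 3 molecules. Crh, Npy2r, Crabp1, Grpr, Scn9a, Shisa6 and Sema3a had 1 UMI each, Pdyn and Ppapdc1a 2, Npas1 3 and Sncg 8. Of the non-neuronal and excitatory lists, the summed excitatory genes lay at 81.2 to 411 CPM in the P60 saline libraries and 229 to 318 at P21, and Slc17a7, the vesicular glutamate transporter of cortical excitatory cells, was at 32.7 CPM in the cluster as a whole.

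**Figure D1:**
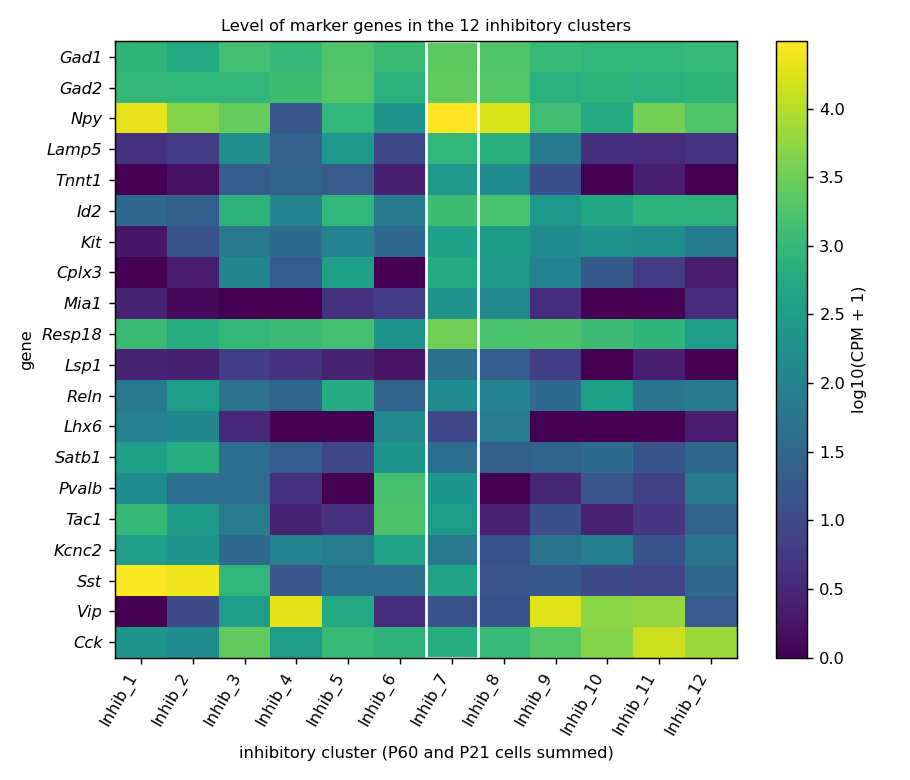
Level of 20 genes in each of the 12 inhibitory clusters, all 15 libraries pooled, as log10(CPM + 1) in colour, with clusters along the horizontal axis, genes along the vertical axis and Inhib_7 framed. Npy, Lamp5, Kit, Cplx3, Mia1, Resp18, Lsp1 and Tnnt1 are at their highest in the framed column, while Pvalb and Tac1 peak in Inhib_6 (1440 and 1740 CPM), Sst in Inhib_1 and Vip in Inhib_4.

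A marker can miss cells because of depth, so the share of cells with a UMI was also taken after every cell was thinned to 2000 UMIs, which left out 1 P21 cell of Inhib_7. At P60, Tnnt1 was detected in 54.1% of Inhib_7 cells as counted and 29.8% when thinned, against 50.0% and 22.9% in Inhib_8. Free RNA set a background of 1.29% and 0.533% in endothelial cells (median 4516 UMIs) and 2.91% and 0.402% in excitatory neurons. Tnnt1 was therefore above background in Inhib_7, and a median cell held 1 UMI of it at either age.

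Lamp5 was found in 83.2% of Inhib_7 cells at P60 (65.8% thinned) and in 100% at P21 (89.3% thinned), in 2.64% of P60 endothelial cells (1.23% thinned) and in 51.1% of P60 excitatory neurons (19.6% thinned), so it was not particular to inhibitory cells. Npy was found in 92.6% of cells at P60 and 98.7% at P21, with a median of 191.5 and 186.5 UMIs a cell. In endothelial cells, which do not make it, Npy was found in 7.63% at P60 and 8.60% at P21. It was found in 17.3 and 20.1% of excitatory neurons and in 48.8 and 55.2% of the other inhibitory neurons at these ages. Inhib_8 did not lie below Inhib_7 in either gene at P60. Lamp5 was found in 95.8% of its 48 cells (66.7% thinned). Npy was found in 100% of them (93.8% thinned, against 87.2% in Inhib_7). At P21 each gene was found in 92.3% of the 26 Inhib_8 cells. The 3 P21 libraries differed in detection of Tnnt1, with 80.0%, 40.0% and 18.8% of their Inhib_7 cells, in the same order as their median depth. The P60 libraries ranged from 28.6% to 71.4%, both ends coming from maintenance libraries of 7 cells.

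The Pvalb signal of the cluster came from a minority of cells. At P60, 350 of 392 cells had no Pvalb UMI, and 27 cells with 5 or more held 849 of the 877 Pvalb UMIs, or 96.8%, the highest cell having 91. Tac1, the precursor of substance P, was found in 49 P60 cells, 32 of which also had Pvalb. At P21, 0 of 76 cells had Pvalb, which by counting error alone allows a share of cells with a UMI of up to 3.95% and does not limit cells that express the gene, and 2 cells had Tac1. The Pvalb share at P60, 10.7% as counted and 7.14% thinned, was above the 0.252% and 0.0842% of endothelial cells and the 0.499% and 0.0970% of excitatory neurons.

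Cells with Pvalb or Tac1 and cells with Lamp5 or Tnnt1 were almost separate. Of 392 P60 cells, 325 had a UMI of Lamp5 or Tnnt1 alone, 56 of Pvalb or Tac1 alone, 3 of both and 8 of neither, and of 76 P21 cells 74 had Lamp5 or Tnnt1 alone and 2 had both. Among the 212 P60 cells with Tnnt1, 210 had Lamp5, 2 had Pvalb and none had Tac1. The 2 markers given with the cluster were thus in different cells.

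Some genes that this division was not made with followed it, and others hardly did by detection. The 59 P60 cells with Pvalb or Tac1 were compared with the other 333 as a description, because the 59 were picked after their values were seen. Kcnc2, a fast potassium channel of parvalbumin cells, was found in 55 of the 59 and 29 of the 333, and Satb1, a chromatin organiser of cells from the medial eminence, in 48 and 13. The lineage factors Sox6 (16 and 1) and Lhx6 (15 and 3) were likewise concentrated in the 59 cells, as was Tcap, the titin cap protein (47 and 15). Other parvalbumin cell genes divided little by detection. Kcnc1 was found in 84.7% of the 59 and 80.5% of the 333, Cplx1 in 98.3 and 93.4%, and Scn1a in 74.6 and 69.1%. The levels of these were higher in the 59, with Kcnc1 for example at 404 and 230 CPM. Cox6a2 was found in 91.5 and 52.6%, and Syt2 in 15.3 and 1.20%.

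The 333 cells held the Lamp5 side. Adarb2, a marker of cells from the caudal eminence, was found in none of the 59 and 144 of the 333, Reln in 1 and 121, Kit in 2 and 298, Cplx3 in 2 and 307, and Mia1 in 1 and 140. Levels went the same way, with Npy at 3587 CPM in the 59 cells and 33966 in the 333, Resp18 at 597 and 3852, and Id2 at 137 and 1484. Gad1 was at 1158 and 2487 CPM, so both sets made GABA enzymes. Sst was at 1645 CPM in the 59 and 278 in the 333.

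**Figure D2:**
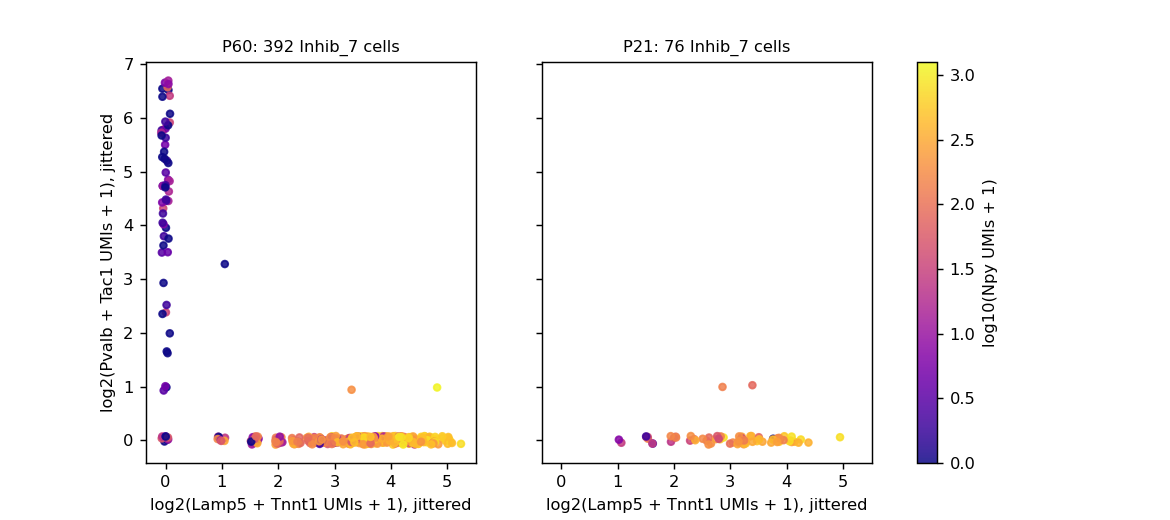
Each point is 1 Inhib_7 cell, with log2(Lamp5 + Tnnt1 UMIs + 1) on the horizontal axis, log2(Pvalb + Tac1 UMIs + 1) on the vertical axis, a small jitter on both, and colour for log10(Npy UMIs + 1), at P60 on the left (392 cells) and P21 on the right (76 cells). Most P60 cells lie along the horizontal axis with high Npy and 56 lie along the vertical axis with lower Npy, and the vertical arm is absent at P21.

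The Pvalb or Tac1 cells were not spread evenly over libraries or ages. They made up 0, 28.6, 18.2, 27.3, 17.3 and 4.55% of Inhib_7 in the 6 saline libraries, in the order maintenance, 48 h and 15 days with replicate 1 first, and 0, 38.5, 0, 20.0, 9.59 and 11.9% in the 6 cocaine libraries. In the 3 P21 libraries they were 2.50, 0 and 6.25%. The P60 libraries spanned this whole range, so saline and cocaine overlapped.

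Where the authors' assignment put such cells differed between ages. Of the 41 inhibitory neurons with 5 or more Pvalb UMIs at P60, 27 were in Inhib_7 and 13 in Inhib_6, while of 83 at P21 none were in Inhib_7 and 64 were in Inhib_6, 10 in Inhib_2 and 8 in Inhib_1. P60 cells were clustered by the authors, whereas P21 cells were given the P60 cluster with which they correlated best, so age and the route of assignment cannot be told apart. The P21 tests below were therefore also run without the Pvalb or Tac1 cells, an alternative added after the data were seen, and named calls lost there are pointed out.

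The first question was whether the share of these cells differs between the P21 and the saline P60 mice. By the study's methods the saline mice had food training, catheter surgery and saline self-administration, whereas the P21 mice had no treatment. Age and these procedures therefore cannot be told apart. Inhib_7 made up 15.8 and 25% of the inhibitory neurons in the 2 saline libraries of the maintenance phase, 37.3 and 40.4% at 48 h, and 39.7 and 30.6% at 15 days. In the 3 P21 libraries it made up 13.8, 6.64 and 4.31%. All 3 P21 libraries lay below the lowest saline library.

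The mean share was 31.5% ± 9.69 (SD, n = 6) in saline P60 and 8.25% ± 4.94 (SD, n = 3) in P21, a difference of 23.2 percentage points (exact permutation test over 84 splits, two-sided, p = 0.0119, the smallest that this design can give). Leaving out the Pvalb or Tac1 cells from both the cluster and the inhibitory neurons gave 18.2 points (p = 0.0476, exact permutation). Pooling Inhib_6 with Inhib_7 gave 9.24 points (p = 0.238, exact permutation), since Inhib_6 held 10.0, 16.6 and 22.4% of the inhibitory neurons at P21. As a share of all retained cells, Inhib_7 was 1.46% at P60 and 0.700% at P21, a difference of 0.760 points (p = 0.202, exact permutation).

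The share did not follow the treatment. In the 6 cocaine libraries Inhib_7 made up 20.6 and 27.1% of inhibitory neurons in maintenance, 51.6 and 26.3% at 48 h, and 33.5 and 29.0% at 15 days, all within the range of saline apart from the 51.6%, which rests on 16 of 31 cells (95% Wilson interval 34.8 to 68.0%). The means were 31.3% ± 10.8 and 31.5% ± 9.69 (SD, n = 6 each), a difference of -0.109 points (exact permutation within time points, 216 arrangements, two-sided, p = 1). Within the time points the cocaine minus saline differences were 3.44, 0.137 and -3.90 points, and 2 libraries against 2 cannot give an exact permutation p under 0.333. These intervals and counts cover counting error only.

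**Figure D3:**
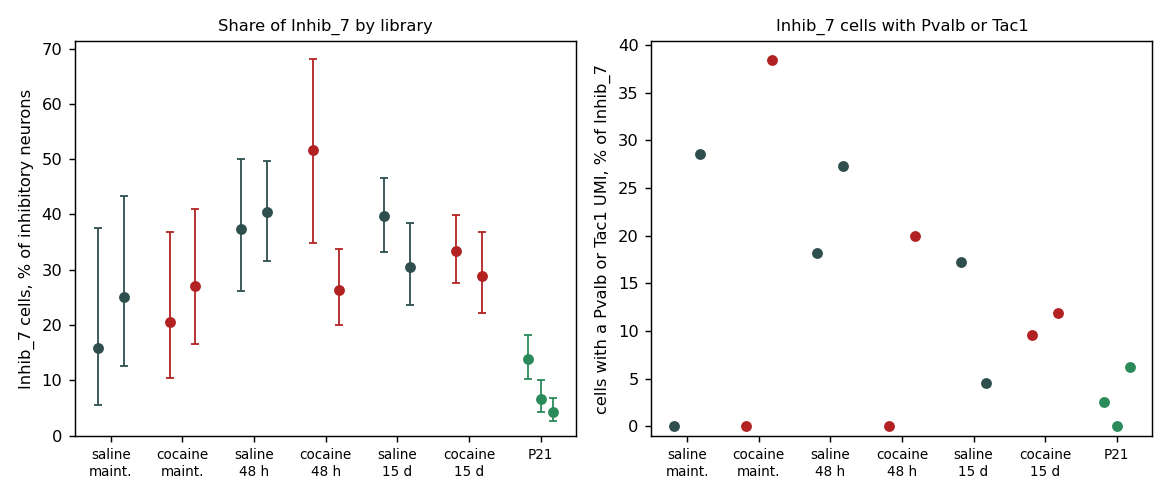
Left, the share of inhibitory neurons that were Inhib_7 in each of the 15 libraries (percent, vertical axis) by group (horizontal axis), with 95% Wilson intervals from cell counts. Right, the percent of Inhib_7 cells with a UMI of Pvalb or Tac1 in the same libraries. The 3 P21 libraries lie at 4.31 to 13.8% on the left, under all P60 libraries, and at 0 to 6.25% on the right, where P60 ranges from 0 to 38.5%.

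The next question was which genes of Inhib_7 differ between the P21 and the saline P60 mice. As for the share, age cannot be told apart from the procedures of the saline mice. UMIs of Inhib_7 were summed per library and P21 was compared with saline P60 by edgeR's quasi-likelihood test, and genes were called where the adjusted p (Benjamini-Hochberg) was under 0.05 and the change exceeded 1.5-fold. P60 values are given in the order maintenance (both libraries summed), 48 h replicates 1 and 2, and 15 days replicates 1 and 2, and log2 fold changes are P60 minus P21. Of 4498 genes tested, 219 were called (4.87%), 46 of them higher at P60 (1.02%) and 173 lower (3.85%), and 828 had an unadjusted p below 0.05. DESeq2 called 104. The 3 P21 values and the 5 P60 values did not overlap in 608 genes, or 13.5%. Here and in the tests below, the largest rises and falls were picked from called genes without overlap. That they do not overlap is therefore no further support.

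Tnnt1 and Npy overlapped between the ages and were not called, and the change of Lamp5 was under the fold cutoff. Tnnt1 was at 294, 188 and 137 CPM in P21 and 165, 163, 197, 300 and 316 in P60 (log2 fold change 0.00 ± 0.26 SE, adjusted p = 0.9995). Npy was at 40017, 38315 and 42338 CPM in P21 and 42978, 38245, 22965, 26517 and 32410 in P60 (-0.34, adjusted p = 0.346). The P60 units spanned most of the range of both genes. Lamp5 was at 1003, 1305 and 1420 CPM in P21 and 860, 885, 746, 869 and 980 in P60, groups that did not overlap, but its change of -0.53 ± 0.14 SE (adjusted p = 0.0246) was smaller than 1.5-fold, and it was -0.25 (adjusted p = 0.415) without the Pvalb or Tac1 cells.

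None of the 7 GABA identity genes, 8 genes of GABA synthesis and transport or 9 GABA-A receptor subunits tested was called. Over all genes tested 4.87% were called. The GABA enzyme genes Gad1 and Gad2 changed by 0.06 (adjusted p = 0.882) and -0.36 (adjusted p = 0.0818), and the vesicular GABA transporter Slc32a1 by -0.42 (adjusted p = 0.173). The median of these 3 lists lay at -0.28, -0.36 and 0.05, against -0.00570 over all genes tested.

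Activity-regulated genes were among the lower genes at P60. Of 10 immediate early genes tested, 4 fell (Fos, Junb, Ier2 and Dusp1), none rose, and the median of the 10 was -1.10. Over all genes tested 3.85% were called lower. This list, like the others, was chosen with earlier results of these data known. Fos, a transcription factor that neurons switch on after activity, was at 569, 807 and 763 CPM in P21 and 154, 179, 304, 272 and 285 in P60 (-1.49 ± 0.18 SE, adjusted p = 1.92e-06). Junb, its partner, was at 254, 232 and 91.6 CPM in P21 and 11, 16.3, 14.6, 20.3 and 54.4 in P60 (-3.11 ± 0.35 SE, adjusted p = 3.50e-06). Every P21 library lay above every P60 unit in both. In excitatory neurons Junb was at 248, 214 and 186 CPM in P21 and 27.0 to 118 over the P60 libraries.

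Ier2 was at 144, 122 and 107 CPM in P21 and 11, 5.43, 0, 5.41 and 36.3 in P60 (-3.57 ± 0.55 SE, adjusted p = 0.00124), again without overlap. In excitatory neurons it was at 55.8, 31.5 and 28.7 CPM in P21 and 2.37 to 20.2 over the P60 libraries. Dusp1, a phosphatase of MAP kinases, was at 70.3, 99.6 and 45.8 CPM in P21 and 11, 21.7, 26.7, 32.4 and 49.2 in P60, which overlapped (-1.22, adjusted p = 0.0411), and it was not called without the Pvalb or Tac1 cells. Egr1, another early gene, was at 42.8, 22.1 and 61.1 CPM in P21 and 0 to 72.6 in P60 and was not called (0.13), and Btg2 missed the threshold (-1.21, adjusted p = 0.0505).

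Gadd45g, a stress- and activity-induced member of the Gadd45 family, had the smallest p of all genes. It was at 486, 752 and 550 CPM in P21 and 176, 179, 122, 141 and 184 in P60 (-1.95 ± 0.19 SE, adjusted p = 2.03e-08), with no overlap, and it was called without the Pvalb or Tac1 cells too (-1.92, adjusted p = 8.89e-07). Kdm6b, a histone demethylase, was at 58.1, 44.2 and 45.8 CPM in P21 and 11, 5.43, 7.29, 9.46 and 13 in P60 (-2.51, adjusted p = 0.00504), also without overlap.

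The P21 libraries also lay highest for Fos, Junb, Ier2 and Gadd45g in excitatory neurons. In excitatory neurons Fos was at 163, 205 and 202 CPM in P21, 71.4 and 116 in the 15-day cocaine libraries and 52.7 to 142 in the other P60 libraries, and Gadd45g was at 159, 189 and 172 against 39.3 to 87.1 over the P60 libraries. The summed list of early genes in Inhib_7 ran from 171 to 873 CPM over saline P60, from 521 to 833 over cocaine P60 and from 1389 to 1692 over P21. What part of the change in Inhib_7 it shared with other inhibitory neurons was tested separately, as given further on.

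Hapln1, the link protein that ties aggrecan to hyaluronan in the perineuronal matrix, was at 609, 896 and 1069 CPM in P21 and 309, 260, 199, 258 and 275 in P60 (-1.73 ± 0.18 SE, adjusted p = 4.63e-08), without overlap. It never exceeded 1.87 CPM in excitatory neurons, and it was called without the Pvalb or Tac1 cells (-1.53). With Inhib_6 and Inhib_7 pooled its change was 0.00, a pool that adds 162 cells at P21 and 22 in the saline P60 libraries. Of the 10 listed perineuronal net genes only 2 passed the filter on low counts, and the other was not called.

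Genes of growing axons and the actin skeleton were lower at P60 in part. Of 13 tested, Marcksl1 and Tmsb10 fell, none rose, and the median was -0.47, beside 3.85% of all genes called lower. Tmsb10, which binds free actin, was at 1254, 1150 and 1741 CPM in P21 and 628, 754, 719, 918 and 796 in P60 (-0.86 ± 0.15 SE, adjusted p = 0.000328). Marcksl1, an actin-linked substrate of protein kinase C, was at 184, 221 and 137 CPM in P21 and 132, 70.6, 68.1, 78.4 and 101 in P60 (-1.18 ± 0.24 SE, adjusted p = 0.00184). Neither overlapped between the ages. Pfn1, profilin, which is not on that list, was at 245, 243 and 137 CPM in P21 and 22.1, 21.7, 43.8, 33.8 and 82.9 in P60 (-2.36 ± 0.29 SE, adjusted p = 4.43e-06).

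In lists with signalling molecules of the cell surface and synapse, those given here had 1 call each, beside 4.87% of all genes tested. Reln was at 199, 310 and 244 CPM in P21 and 110, 86.8, 175, 132 and 158 in P60, without overlap (-0.81 ± 0.22 SE, adjusted p = 0.0269), the only one of 9 Lamp5 and neurogliaform genes called, and it was -0.46 (adjusted p = 0.343) without the Pvalb or Tac1 cells. Cacna2d1, an auxiliary calcium channel subunit, was at 260, 365 and 412 CPM in P21 and 209, 179, 122, 196 and 197 in P60 (-0.91 ± 0.21 SE, adjusted p = 0.00665), the 1 call among 10 sodium and calcium channels, and it was -0.67 (adjusted p = 0.0766) without those cells. Syn1, a synaptic vesicle protein, fell by 0.74 on the log2 scale (adjusted p = 0.0364) with overlapping values, the 1 call among 16 release genes, and it was -0.66 (adjusted p = 0.0966) without those cells.

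Another group of lower genes also differed widely among the P21 libraries. Cox5a, a subunit of cytochrome oxidase, was at 1119, 520 and 458 CPM in P21 and 187, 136, 143, 109 and 244 in P60 (-2.31 ± 0.36 SE, adjusted p = 0.00997). Pop5 was at 156, 88.5 and 61.1 CPM in P21 against 17.0 to 41.5 in P60 (-2.28), and Gm1673 at 459, 177 and 76.3 against 11 to 54.4 (-3.57 ± 0.60 SE, adjusted p = 0.0198). The P21 libraries lay above all P60 units but differed several-fold among themselves, replicate 1 being the highest in each.

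In excitatory neurons too, the P21 and 15-day cocaine libraries lay above all other P60 libraries in Cox5a and Gm1673. Cox5a was there at 1261, 518 and 438 CPM in P21, 709 and 632 in the 15-day cocaine libraries and 97.0 to 309 in the other P60 libraries. Gm1673 was at 315, 45.0 and 42.5 CPM in P21, 79.4 and 55.9 in the 15-day cocaine libraries and 9.79 to 37.0 elsewhere. Pop5 in excitatory neurons is taken up with the 15-day genes further on. Other large falls in Inhib_7 were 2310036O22Rik (-2.61), Tmem93 (-2.61), Gde1 (-2.08) and 2310044H10Rik (-2.03), whose levels in excitatory neurons are not given here. What the P21 and 15-day cocaine libraries share was not tested. Of 70 oxidative phosphorylation genes tested, Cox5a and Atp5d (-0.64, adjusted p = 0.00802) were called, and the median of the 70 was 0.00115. Over all genes tested 4.87% were called. Without the Pvalb or Tac1 cells neither was called, Cox5a at -2.60 (adjusted p = 0.0667) and Atp5d at -0.58, which is under the fold cutoff (adjusted p = 0.0386).

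Markers of other cell classes were low in Inhib_7 at both ages. The summed astrocyte genes lay at 139 to 378 CPM in saline P60 and 137 to 321 in P21, the oligodendrocyte genes at 16.2 to 233 and 76.3 to 180, and the microglia genes at 21.7 to 57.0 and 11.1 to 30.6, ranges that overlapped. None of the 2 excitatory, 1 astrocyte and 2 oligodendrocyte genes that passed the filter was called.

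Fewer genes were higher at P60. Ass1, an enzyme of arginine synthesis, was at 21.4, 11.1 and 45.8 CPM in P21 and 132, 136, 124, 81.1 and 82.9 in P60 (2.1 ± 0.40 SE, adjusted p = 0.00124). Asna1, an ATPase that delivers tail-anchored proteins to membranes, was at 85.6, 55.3 and 76.3 CPM in P21 and 276, 179, 214, 205 and 200 in P60 (1.37 ± 0.25 SE, adjusted p = 0.000723). Nrsn2, a vesicle membrane protein of neurons, was at 107, 99.5 and 76.3 CPM in P21 and 198, 288, 258, 288 and 174 in P60 (1.24 ± 0.25 SE, adjusted p = 0.00178). These 3 were picked from called genes without overlap between the ages. All 3 were also called without the Pvalb or Tac1 cells (1.62, 1.26 and 0.95). In excitatory neurons the ages were likewise apart in Ass1, with 12.0, 10.7 and 9.80 CPM in P21 and 59.1 to 101 over the P60 libraries, and in Asna1, with 147, 66.3 and 62.8 against 179 to 215.

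Armcx5 rose from 48.9, 33.2 and 107 CPM in P21 to 132 to 150 in P60 (1.31 ± 0.29 SE, adjusted p = 0.00467), and Hspa1a, the inducible chaperone Hsp70 and the 1 call of 10 heat shock genes, from 33.6, 44.2 and 45.8 to 65.1 to 150 (1.32 ± 0.37 SE, adjusted p = 0.0300). Gria2, the AMPA receptor subunit that limits calcium entry, was at 248, 254 and 336 CPM in P21 and 441, 450, 357, 407 and 472 in P60 (0.60 ± 0.19 SE, adjusted p = 0.04997), the 1 call of 7 ionotropic glutamate receptors. The ages did not overlap in these genes, though Gria2 stood at the edge of the threshold. Yipf1 (1.37), Vps72 (1.41), Dnajc12 (1.56) and A930001N09Rik (1.32) completed the largest rises, with adjusted p from 0.0236 to 0.0335.

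Some of the rises were in genes found, within Inhib_7, mostly in the Pvalb or Tac1 cells. Tcap was at 12.2, 0 and 0 CPM in P21 and 110, 54.3, 77.8, 87.9 and 62.2 in P60 (3.11 ± 0.53 SE, adjusted p = 0.000332). In excitatory neurons Tcap was found in 11.7% of cells at P21 (3.57% thinned) and 25.2% at P60 (7.28% thinned). Kcnc2 was at 27.5, 33.2 and 15.3 CPM in P21 and 88.2, 86.8, 134, 78.4 and 38.9 in P60 (1.58 ± 0.44 SE, adjusted p = 0.0323). It was the 1 call among 14 potassium channels and among 10 parvalbumin cell genes, a list that also holds Tnnt1. Satb1 had 80 UMIs in P60 and 1 in P21, a ratio of 21.3 with a counting interval of 3.72 to 852 (adjusted p = 0.0499). The level of each of these genes in P60 came mostly from the minority of cells described above. With Inhib_6 and Inhib_7 pooled all 3 changed in the opposite direction, Tcap by -1.40, Kcnc2 by -2.17 and Satb1 by -2.19.

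Pvalb itself had 622 UMIs, or 343 CPM, in saline P60 and 0 in P21, which is at least 55.3-fold higher when 3 counts over the P21 group are taken as the floor, but it was not called (adjusted p = 0.195). Tac1 had a ratio of 94.6 (counting interval 26.1 to 783) on 2 UMIs in P21 and was not called either (adjusted p = 0.105). Without the Pvalb or Tac1 cells, 140 genes were called, 31 higher and 109 lower, and 124 of these were among the 219, with the same direction in all 124. That is 56.6% of the 219 and 88.6% of the 140. Among the named genes that were tested but not called there were Dnajc12, Vps72, A930001N09Rik, 2310036O22Rik, Tmem93, Gde1, Cox5a, Atp5d, Syn1, Reln, Cacna2d1 and Dusp1, while Tcap, Kcnc2 and Satb1 were not tested.

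Single libraries decided a part of these calls. With each library left out in turn, Fos, Junb, Ier2, Gadd45g, Hapln1, Tmsb10, Pfn1, Asna1, Nrsn2 and Tcap were called every time. Kdm6b did not pass the filter on low counts in every one of these fits. Without P21 replicate 1, the most deeply sequenced of the 3, 99 genes were called in place of 219, and Marcksl1, Pop5, Ass1 and Armcx5 were among those lost. With P21 libraries 2 and 3 summed, which leaves 2 P21 units, 170 were called, 31 higher and 139 lower. The count was 133 without either maintenance library or without saline 48 h replicate 2, and 126 without saline 15-day replicate 1. Cacna2d1 was lost without P21 replicate 3, Cox5a without saline 48 h replicate 1, and Reln, Syn1, Dusp1, Gm1673, Hspa1a, Gria2, Kcnc2 and Satb1 without at least 3 different libraries in turn. With the 6 cocaine P60 libraries in place of the saline ones, 24 genes were called, and of 31 named genes tested there 5 were called (Gadd45g, Fos, Ass1, Asna1 and Nrsn2) and 26 were not. Among the 26 were Hapln1 (-1.65, adjusted p = 0.0625), Junb (-2.13, adjusted p = 0.0859), Ier2 (-1.70, adjusted p = 0.0806), Kdm6b (-2.11, adjusted p = 0.124), Tmsb10 (-0.83, adjusted p = 0.109) and Pfn1 (-1.51, adjusted p = 0.281), all with the same sign as before, and Tcap was not tested there.

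**Figure D4:**
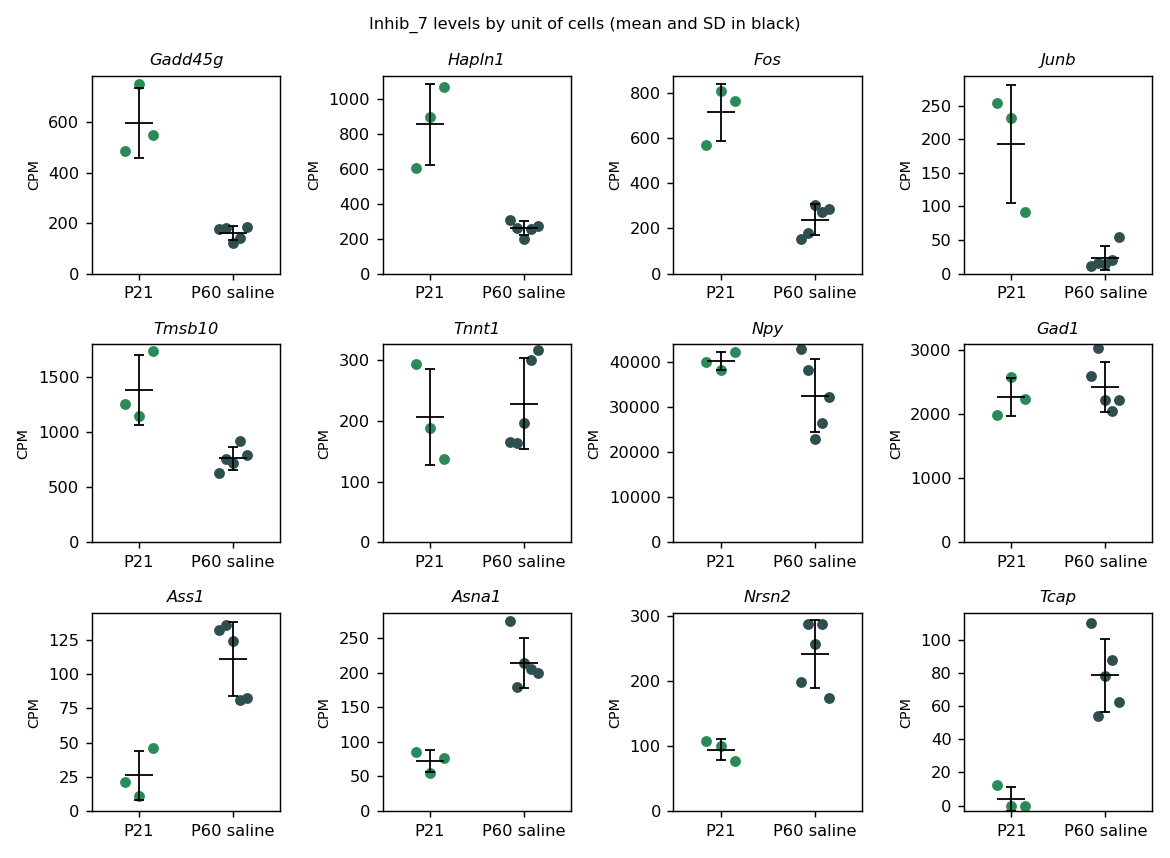
Levels of 12 genes in Inhib_7 (CPM, vertical axis) in the 3 P21 libraries and the 5 P60 saline units (points, horizontal axis), with mean and SD in black. Gadd45g, Hapln1, Fos, Junb and Tmsb10 lie higher in P21 without overlap, Tnnt1, Npy and Gad1 overlap, and Ass1, Asna1, Nrsn2 and Tcap lie higher in P60.

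A change in Inhib_7 may be shared by other inhibitory neurons, so the difference between both changes was tested in the same 8 units, with the other 11 inhibitory clusters summed per library and library as a block. Of 7247 genes, 191 were called (2.64%), 103 with a more positive change from P21 to P60 in Inhib_7 (1.42%) and 88 with a more negative one (1.21%), 883 had an unadjusted p below 0.05, and the 2 sets of differences did not overlap in 674 (9.3%). Without P21 replicate 1, 106 were called. Of the 219 age genes, 32 were among the 191. The other clusters differed in make-up between the ages, Inhib_2 having 112 cells at P60 and 341 at P21 and Inhib_3 135 and 12, and the part of this in the result was not tested.

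Among the negative differences were Pnoc, Car4, Cacna2d1 and Aldoc. Pnoc was at 1056 CPM in saline P60 and 1195 in P21 in Inhib_7, against 387 and 184 in the other clusters (difference of log2 changes -1.31, adjusted p = 8.42e-13). Car4, a membrane-bound carbonic anhydrase, was at 193 and 369 CPM against 66.6 and 31.4 (-1.85, adjusted p = 3.25e-09), Cacna2d1 at 178 and 300 against 58.0 and 26.4 (-1.90, adjusted p = 1.39e-07), and Aldoc, an aldolase also listed as an astrocyte gene, at 217 and 211 against 308 and 85.3 (-1.73). All 4 were called without the Pvalb or Tac1 cells and with each library left out in turn. Against Inhib_2 alone none of the 4 was called, and Pnoc then had the opposite sign (0.82). Other large negative differences were those of Chst7 (-3.01), Kcnip3 (-2.67), Rassf2 (-2.46), Sstr2 (-2.26), Lingo2 (-2.13) and Gm17566 (-1.89), with adjusted p from 8.89e-05 to 0.0336, and of these only Lingo2 was called without the Pvalb or Tac1 cells.

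Some early genes had a more negative change in Inhib_7 than elsewhere. Fos was at 267 CPM in P60 and 640 in P21 in Inhib_7 and at 388 and 412 in the other clusters (-1.24, adjusted p = 0.00121), and Junb was at 25.4 and 228 against 56.5 and 132 (-1.66, adjusted p = 8.89e-05). Both were called without the Pvalb or Tac1 cells, and Ier2 (-1.66, adjusted p = 0.0307) was not. The call of Fos, but not that of Junb, was lost without P21 replicate 3. Of 15 early genes tested these 3 were called, all in this direction, with a median of -0.74 against 0.0126 over all genes tested. Of all genes 1.21% were called in this direction.

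Genes of blood vessel cells were in the same direction, with 3 of 4 tested called, beside 1.21% of all genes. Itm2a (-2.90), Cldn5, a tight junction protein (-3.17), and Ly6c1 (-2.88) were each called, as were Cd34 (-2.30) and Ifitm3 (-3.84), which are not on that list, and all were called without the Pvalb or Tac1 cells. Itm2a was called with each library left out in turn, and the other 4 were lost without at least 1 of the P21 libraries. A negative difference can also come from the other clusters. The 6 saline libraries held 3, 7, 22, 44, 81 and 44 Inhib_7 cells, and the P21 libraries 40, 20 and 16. Of these, 0, 0, 3, 6, 14 and 7 had a UMI of Itm2a in saline, and 6, 2 and 1 in P21. For Ly6c1 the counts were 0, 0, 0, 4, 13 and 10, and 4, 1 and 2. For Cldn5 they were 0, 0, 0, 0, 2 and 2, and 5, 1 and 1. The summed endothelial genes in Inhib_7 lay at 0 to 122 CPM in saline P60 and 61.1 to 276 in P21. Their part in these calls was not tested.

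The largest positive differences were genes of the minority. Of 13 parvalbumin cell genes tested, from the list that also holds Tnnt1, 6 were called in this direction and none in the other. Over all genes 1.42% were called in this direction. The 6 were Pvalb, Tac1, Kcnc2, Ppargc1a, Cplx1 and Kcnc1. Without the Pvalb or Tac1 cells, which leaves no UMI of those 2 genes, none of the other 4 was called. Kcnc2 was at 83.9 CPM in P60 and 26.9 in P21 in Inhib_7, against 88.4 and 270 in the other clusters (3.08, adjusted p = 9.53e-09). Pvalb was at 343 and 0 against 67.8 and 310, and Tac1 at 392 and 4.14 against 22.8 and 774. In each of these the other clusters were higher at P21, where the cells with most Pvalb had been assigned to Inhib_6, Inhib_2 and Inhib_1. The calls of Pvalb and Tac1 were lost without any 1 of the 3 P21 libraries, that of Kcnc2 was not.

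Lineage genes differed in both directions, in which 1.42% (positive) and 1.21% (negative) of all genes were called. Of 5 tested genes of the medial eminence Sox6 and Satb1 (5.74) had positive differences, and of 6 of the caudal eminence Prox1 (-1.69) and Adarb2 (-1.67) had negative ones. Id2 was at 1286 and 1083 CPM against 593 and 189 (-1.44), and Kit at 375 and 478 against 115 and 54.0 (-1.27). Against Inhib_2 alone these 4 genes had the opposite sign and were not called, Prox1 at 2.18, Adarb2 at 2.38, Id2 at 0.88 and Kit at 0.0282. None of the lineage genes, Id2, Kit, Kcnc2, Ppargc1a (2.34), Cplx1 (1.14) or Gria1 (1.34) was called without the Pvalb or Tac1 cells. In that fit 43 genes were called, of which 32 were shared, or 16.8% of the 191 and 74.4% of the 43.

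Lgals1, galectin-1, differed in another way. It was at 116 CPM in P60 and 0 in P21 in Inhib_7 and at 198 and 543 in the other clusters, and it was called without the Pvalb or Tac1 cells as well (7.39, adjusted p = 0.00783), a fitted value that depends on the prior count because P21 was at 0. Few cells carried it. In saline 48 h replicate 2, 11 of 44 cells had a UMI and 1 held 44 of 101. In saline 15-day replicate 1, 13 of 81 cells had one and 1 held 12 of 61. In replicate 2, 4 of 44 cells had one and 1 held 14 of 17. Also at 0 in P21 Inhib_7 and called were Gm13205, Calca, Amn, Lpl, Cacna2d2, 6330512M04Rik, Mustn1, Moxd1, Gpx3 and Sox6. Without the Pvalb or Tac1 cells none of these 10 was called, and Amn, Lpl and Mustn1 were not tested there. Cacna2d2, an auxiliary calcium channel subunit, had a UMI in 42 of the 59 P60 cells with Pvalb or Tac1 and 10 of the other 333. Calca, which encodes calcitonin and CGRP, rested on few cells, 1 cell holding 9 of its 10 UMIs in saline 15-day replicate 2 and 7 of 9 in replicate 1.

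The last question was whether these cells differed between cocaine and saline. In 1 fit of the P60 units with a mean for each group, 6861 genes were tested and cocaine was compared with saline at each time point. During maintenance, where each group is 1 summed unit and the spread comes from the other groups, edgeR called 0 genes and 407 had an unadjusted p below 0.05. DESeq2 over all time points called 0 genes, as did edgeR, with 447 at an unadjusted p below 0.05. The genes that name the cluster were not called at any time point: at 15 days Tnnt1 changed by 0.02, Npy by 0.07, Lamp5 by -0.02 and Gad1 by 0.10 on the log2 scale, and in maintenance Tnnt1 changed by 1.29 (adjusted p = 0.814).

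At 48 h, 1 gene was called (0.0146%), and 359 had an unadjusted p below 0.05. Mt1, a metallothionein that binds zinc and copper, was at 413 and 540 CPM in cocaine and 201 and 180 in saline (1.40 ± 0.22 SE, adjusted p = 0.000714). The groups did not overlap, as was so for 30.8% of all genes with 2 libraries against 2. The call was lost without saline 48 h replicate 2 (adjusted p = 0.131) or cocaine 48 h replicate 2 (0.0759), and DESeq2 called 0 genes. The count of calls at 48 h was 35 without cocaine replicate 1 and 7 without cocaine replicate 2. In the other inhibitory neurons Mt1 was at 339 and 710 CPM in cocaine and 421 and 203 in saline, which overlapped. In excitatory neurons it was at 185 and 171 CPM in cocaine and 150 and 135 in saline, which did not overlap and lay in the same direction as in Inhib_7.

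At 15 days, 49 genes were called (0.714%), 45 higher in cocaine (0.656%) and 4 lower (0.0583%). Of all genes 419 had an unadjusted p below 0.05, and DESeq2 called 5. The count fell to 6 without cocaine 15-day replicate 1, 20 without cocaine replicate 2 and 9 without saline replicate 1, and it was 92 without saline replicate 2, 78 without cocaine 48 h replicate 1 and 76 without cocaine 48 h replicate 2. The libraries of cocaine and saline did not overlap in 34.8% of genes at this time point.

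The largest rises were the haemoglobin genes of red blood cells, and they came from 2 cells. Hbb-b1 was at 2217 and 2421 CPM in cocaine and 66.2 and 124 in saline (4.70, adjusted p = 3.43e-16), and Hba-a1 at 574 and 886 against 17.6 and 18.1 (5.33), and Hbb-b2 (6.55) and Hba-a2 (5.65) moved with them. A single cell held 1408 of the 1453 Hbb-b1 UMIs of cocaine 15-day replicate 1, and another 862 of the 872 of replicate 2. With these 2 cells left out, an alternative added after the data were seen, Hbb-b1 changed by -0.75 (adjusted p = 0.776) and 49 genes were called, 43 higher and 6 lower.

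The next largest rises were genes in which the 15-day cocaine libraries stood apart in other cells as well. Cox5a was at 700 and 614 CPM in cocaine and 109 and 244 in saline (1.99 ± 0.30 SE, adjusted p = 0.0137), and Pop5, a subunit of RNase P and MRP, at 124 and 75 against 20.3 and 41.5 (1.87, adjusted p = 0.00130). Ccdc85b was at 71.7 and 83.3 against 14.9 and 13 (2.41, adjusted p = 9.82e-05), and Snf8, a subunit of the endosomal sorting complex, at 142 and 108 against 33.8 and 49.2 (1.69, adjusted p = 0.00332). These genes were picked from called ones whose cocaine and saline libraries did not overlap, as was so for 34.8% of all genes.

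In excitatory neurons Pop5 was at 154 and 128 CPM in these cocaine libraries against 36.6 to 78.2 in the other P60 libraries. Snf8 was there at 153 and 141 against 25 to 80.6, and Ccdc85b at 92.7 and 67.7 against 16.2 to 35.3. In P21 excitatory neurons replicate 1 was high in the same 3 genes, Snf8 for example being at 178 CPM, while replicates 2 and 3, at 79.8 and 72.5, lay within the range of the other P60 libraries. Further rises were Med9 (2.18, adjusted p = 0.0159), 2310036O22Rik (2.11, adjusted p = 0.0285), Meis3 (1.81, adjusted p = 0.0163) and Tmem70 (1.79, adjusted p = 0.0125). Of these 8 calls, 7 were lost without cocaine 15-day replicate 1, and that of Ccdc85b held with each library left out in turn but not with DESeq2.

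The 4 lower genes were Neurod6, Car10, Tcap and Lingo1. Neurod6, a transcription factor of excitatory neurons, was at 12.2 and 8.33 CPM in cocaine and 58.1 and 51.8 in saline (-2.32 ± 0.44 SE, adjusted p = 0.00294), from 11 and 63 UMIs, and excitatory neurons of these libraries had 434 to 476 CPM of it. Tcap, found within Inhib_7 mostly in the Pvalb or Tac1 cells, was at 19.8 and 19.4 CPM in cocaine and 87.9 and 62.2 in saline (-1.95 ± 0.41 SE, adjusted p = 0.0125). At P60 Tcap was found in 25.2% of excitatory neurons (7.28% thinned) and 15.8% of Inhib_7 cells (8.42% thinned). The Pvalb or Tac1 cells made up 9.59 and 11.9% of Inhib_7 in the 15-day cocaine libraries and 17.3 and 4.55% in saline, which overlapped. Car10 (-1.96, adjusted p = 0.0383) and Lingo1 (-1.84, adjusted p = 0.0397) were near the threshold. These 2 genes were also far higher in excitatory neurons of the 15-day libraries, Car10 at 189 to 218 CPM and Lingo1 at 387 to 422. In saline 15-day replicate 2, the highest cell for each gene held 9 of 19 Lingo1 UMIs, 5 of 14 Car10 UMIs and 8 of 20 Neurod6 UMIs. The summed excitatory genes in Inhib_7 lay at 386 and 289 CPM in cocaine and 411 and 389 in saline, and their part in these calls was not tested. Each of the 4 calls was lost without cocaine 15-day replicate 1, without replicate 2 and without saline 15-day replicate 1. Of the listed gene groups only the excitatory genes (Neurod6, 1 of 4 tested) and oxidative phosphorylation (Cox5a, 1 of 70) had a call at 15 days. Over all genes the share was 0.714%.

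**Figure D5:**
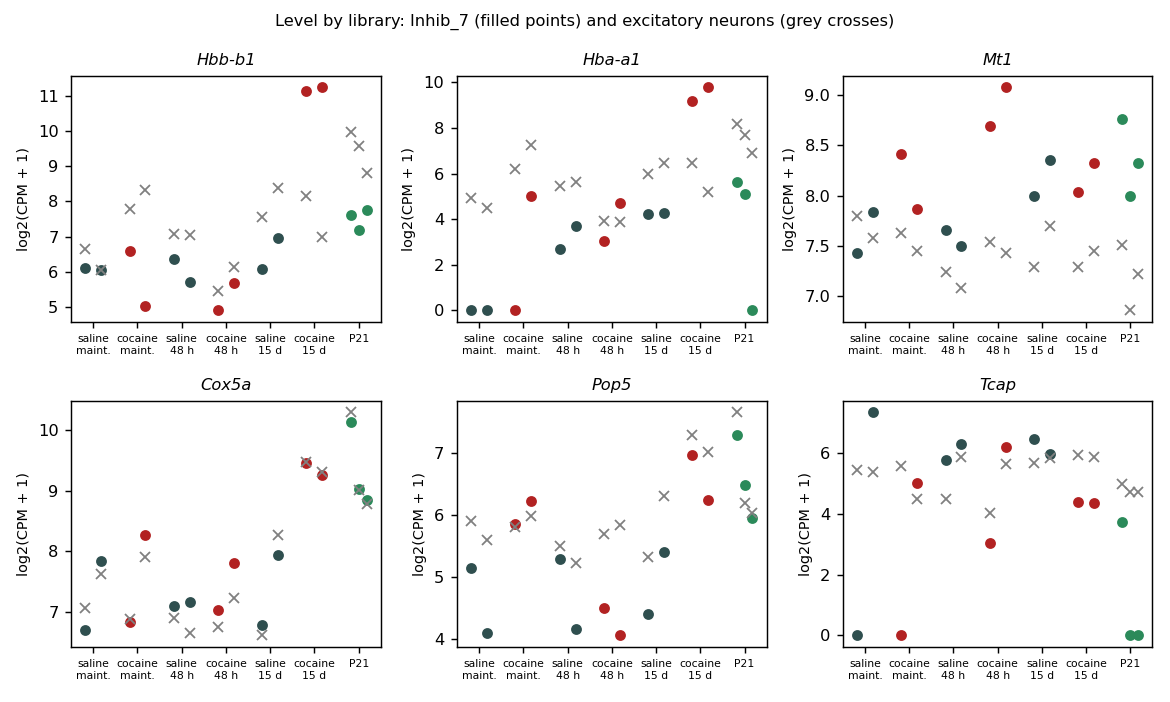
Levels of 6 genes as log2(CPM + 1) (vertical axis) in each library by group (horizontal axis), in Inhib_7 (filled points) and in excitatory neurons (grey crosses). Hbb-b1 and Hba-a1 rise in Inhib_7 in the 2 cocaine libraries at 15 days through 1 cell each, Mt1 lies higher in both cocaine libraries at 48 h, Cox5a is high in the 15-day cocaine and P21 libraries in both kinds of cell, and Pop5 is highest in P21 replicate 1 and cocaine 15-day replicate 1 in both.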

How the data were processed

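Libraries were made by droplet capture of single cells from mouse PFC. The authors aligned reads to mm9 with the NCBIM37 gene models and used Cell Ranger to count UMIs, and the deposited matrices hold raw counts without normalization. The authors' deposited table of cells gives each retained cell's class and cluster, and its mitochondrial content as a fraction of UMIs. Cells with a high mitochondrial fraction, few genes or a doublet-like gene number had been removed by the authors, and no further doublet caller was run here. All 35360 UMI totals matched the deposited ones, and 0 columns of other samples were present.

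Genes of mitochondria (13) and of ribosomal proteins (143) did not enter CPM or tests. UMIs were summed over Inhib_7 cells per library, with a minimum of 10 cells. edgeR 4.0.16 in R 4.3.3 gave robust quasi-likelihood tests after filterByExpr and TMM, with 5 P60 saline units against 3 P21 libraries, the same units with the other clusters for the difference, and 10 P60 units for cocaine. Shares were compared by exact permutation. DESeq2 1.42.0 was an alternative. Python 3.11.15, numpy 2.4.6, pandas 2.3.3, scipy 1.17.1 and matplotlib 3.10.9 were used. Named genes were taken from the markers, the 15 genes at each end of the ratio between clusters, the 12 largest non-overlapping rises and falls per test, and up to 4 called members of a list, and others were chosen after their values were seen. The members and lists were chosen with earlier results of these data known.

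On simulated data with 200 changed genes, the age test recovered 52% of 2-fold and 95% of 4-fold changes, the 15-day test 49% and 88%, and the difference test 31% and 74%.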

Additional observations from a re-analysis of the deposited data

Results flagged for a closer look

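A check for single libraries far from the rest of their group was run on 48 groups of 4 to 10 values, of which about 1 in 20 would be picked out by chance, and 2 were. Junb in the saline P60 units was at 54.4 CPM in saline 15-day replicate 2, with the nearest other unit at 20.3. 2310044H10Rik was at 249 CPM in the same library, with the nearest at 121. Both genes were called lower at P60 with that library left out.

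In 2 haemoglobin genes the cocaine minus saline change differed between time points, with most of their 15-day cocaine UMIs in single cells. The log2 fold change of Hbb-b1 was 5.17 larger at 15 days than at 48 h (interaction in edgeR's quasi-likelihood test, adjusted p = 5.63e-08) and that of Hba-a2 5.25 larger (adjusted p = 0.0171). In Hbb-b1, 1 cell in each 15-day cocaine library held 1408 of 1453 and 862 of 872 UMIs, and in Hba-a2 1 cell in each held 283 of 287 and 236 of 241. Without the 2 cells with most Hbb-b1 the difference for Hbb-b1 was -0.27 (adjusted p = 0.999), and that for Hba-a2 was not tested again.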

How the results depend on the processing

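The age test called 219 genes, and 104 with DESeq2, 133 with libraries under 10 cells left out, 74 with all 12 P60 libraries, 68 with the same number of cells per unit, 140 without the Pvalb or Tac1 cells, 24 with the cocaine in place of the saline libraries, 876 with Inhib_6 and Inhib_7 together and 99 to 263 with 1 library left out. Over 17 distinct settings that can change a call, 542 values of named genes were obtained, of which 359 kept direction and call, 176 lost the call and 7 reversed, all with Inhib_6 added: Satb1 -2.19, Tcap -1.40, Kcnc2 -2.17, Dnajc12 -0.12, Reln 0.45, Hapln1 0.00317 and Cacna2d1 0.78. Gadd45g, Fos and Asna1 were called under all 17. Left out of this count were 4 settings: keeping only cells of the inhibitory class changed no cell, dropping the fold cutoff can only add calls, and leaving out either maintenance library gave the same fit as leaving out libraries under 10 cells. The difference between clusters (191 calls) gave 38 against Inhib_2 alone, 43 without the Pvalb or Tac1 cells and 106 to 206 with 1 library left out. Against Inhib_2 alone Prox1 (2.18), Adarb2 (2.38), Id2 (0.88), Kit (0.0282) and Pnoc (0.82) reversed, and Kcnab3 (-0.90) did so without those cells.

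For cocaine, no filter gave 5 calls at 48 h, 88 at 15 days and 4 over all times, DESeq2 gave 0, 5 and 0, and leaving out the Pvalb or Tac1 cells gave 2, 78 and 16. With libraries under 10 cells left out 15 were called over the time points. The 15 and 16 cover 48 h and 15 days alone, since no saline maintenance unit is left, as is so without either saline maintenance library. With 1 library left out, counts ran from 0 to 35, 6 to 92 and 0 to 10. Hbb-b1 reversed to -0.75 without its 2 cells. The age difference in share was 0.760 points of all retained cells, 9.24 with Inhib_6 added and 21.2 to 26.3 with 1 library left out. The cocaine difference in share was 0.290 with Inhib_6 added, 0.804 without the Pvalb or Tac1 cells and -4.33 to 4.11 with 1 library left out. Beyond the smaller number of libraries or cells that some of these settings leave, the cause was not tested.

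No paired analysis was possible because the labels give no replicate numbers that groups share. A fit of cells with Pvalb, Tac1 or Lhx6 alone was not run, with 3 such cells at P21, nor were maintenance fits without the small libraries or those cells. Fewer changes of 2-fold than of 4-fold were recovered on simulated data, and maintenance rests on 1 unit a group. How far the 76 P21 cells and 3431766 P60 UMIs limit what could be detected was not tested.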

Other observations

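Sst, the peptide of somatostatin cells, ranged from 0 to 1121 CPM in Inhib_7 over the 12 P60 libraries (median 62.1) and from 15.3 to 44.2 over the 3 P21 libraries, and in several libraries a single cell carried most of it. In saline 48 h replicate 1, 1 of 22 cells held 181 of 182 Sst UMIs, and in saline 15-day replicate 1, 1 of 81 cells held 467 of 638. In cocaine 48 h replicate 2, the highest library, the top cell held 166 of 357 UMIs (46.5%), and in saline 48 h replicate 2 it held 44.2%. Sst was not called between ages (log2 fold change 4.25, adjusted p = 0.327).

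Of the 392 P60 cells of Inhib_7, 8 had no UMI of Lamp5, Tnnt1, Pvalb or Tac1. All 76 P21 cells had Lamp5.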
